A study of Mus musculus with 6 samples.

Results

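The genes described here are the 9 members of the CREB, CRTC and SIK circuit in cultured mouse neurons: the transcription factors Creb1, Crem and Atf1, the coactivators Crtc1, Crtc2 and Crtc3, and the salt-inducible kinases Sik1, Sik2 and Sik3. They were chosen by name, matched to their Ensembl gene identifiers, and are 9 of 43432 genes listed in each library. All 9 had counts in every library and passed the filter on low counts in each comparison of expression, of the 22515 genes that were counted at least once.

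Poly(A) RNA was sequenced from cortical neurons of wild-type C57BL/6 mouse embryos at E16.5, a stage at which the cortex is forming, with tissue from both sexes pooled. After 6 days in culture every dish, controls included, was silenced overnight with 1 µM tetrodotoxin, which blocks sodium channels, and 100 µM DL-AP5, which blocks NMDA receptors. On day 7 the neurons were given 55 mM KCl, which depolarizes the membrane and lets calcium in through voltage-gated channels, and were lysed after 0 h, 2 h or 6 h. Each of the 3 time points had 2 libraries, described as biological duplicates, so the 0 h cultures are silenced neurons and not neurons at their spontaneous activity.

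CREB proteins are basic leucine zipper factors that sit on the cAMP response element and become active when calcium or cAMP kinases phosphorylate them. CRTC proteins are their coactivators: calcineurin removes phosphate from them after calcium entry, they move to the nucleus and they bind CREB. SIK kinases put the phosphate back, which keeps CRTC in the cytoplasm bound to 14-3-3 proteins. In neurons the circuit is known for linking synaptic activity to transcription, and Crem and Sik1 are themselves known CREB targets that can feed back on it.

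Each library held between 25959298 and 28573067 expected counts. Neuronal markers stood at a summed level of 5359 to 5832 TPM (a level corrected for transcript length and scaled to one total per library) in the 6 libraries, with the 2 h libraries (5359 to 5485 TPM) below the 0 h libraries (5744 to 5832 TPM), and none of the 9 was under 0.1 TPM. Summed astrocyte markers were lower at 6 h, 404.2 to 419.8 TPM, than at 0 h, 510.7 to 552.2 TPM, with all 6 markers above 0.1 TPM in each group. Dividing-cell markers were also lower at 6 h, 104.9 to 120.9 TPM against 146.8 to 152.4 TPM at 0 h. Oligodendrocyte markers were lower at 2 h, 96.77 to 113.1 TPM against 120.4 to 141.0 TPM at 0 h, and overlapped 0 h at 6 h (116.9 to 126.8 TPM). The part of these shifts in the results was not tested. In such bulk libraries fewer cells of a type and less RNA per cell cannot be told apart. The 2 h libraries stood apart from each other: the SD of the log2 ratio between replicates was 0.429 at 2 h against 0.246 at 0 h and 0.214 at 6 h, and at 2 h this ratio ran against GC content over 12290 genes (Spearman's rho -0.744, a description across genes that share both libraries). The same ratio had a rho of -0.405 at 0 h and -0.293 at 6 h, in the same direction. Scaling by library totals in place of median ratios moved the median log2 fold change of 14668 genes from 0.011 to -0.156 at 2 h vs 0 h and from -0.004 to -0.251 at 6 h vs 0 h. It also moved the split of called genes from 609 higher and 1000 lower to 499 and 1332 at 2 h, and from 1572 and 1761 to 1032 and 2564 at 6 h.

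To look for sequences that CREB is known to bind, the RefSeq promoter windows (GRCm38.p6, 250 bases before to 50 after the start) were searched for the cAMP response element, TGACGTCA, and for its half-site, TGACG, on both strands. Every palindrome also holds half-sites. A window was given for 6 of the 9 members, and Sik1, Crem and Crtc2 were not searched. The palindrome was in none of the 6, and in 1.79% of all 32851 windows. The half-site was in the windows of Atf1, Sik2 and Sik3, and in 20.8% of all windows. Sik3 had 3 half-sites, at 133, 116 and 57 bases upstream of the start, and 1.03% of all windows held 3 or more. Sik2 had 2, at 1 base upstream and 13 bases into the transcript, and 5.01% of all windows held 2 or more. The shares over all windows were not matched for GC content, which was 80.0% in the Sik2 window and 73.7% in the Sik3 window. These windows belong to Sik2 and Sik3, both called higher at 2 h and 6 h, and lie at chr9:51009024-51009323 on the minus strand (Sik2) and chr9:46012570-46012869 on the plus strand (Sik3). The sequences below run 5′ to 3′ on the strand of the gene, with half-sites in capitals, read as CGTCA where the match is on the opposite strand:
Sik2: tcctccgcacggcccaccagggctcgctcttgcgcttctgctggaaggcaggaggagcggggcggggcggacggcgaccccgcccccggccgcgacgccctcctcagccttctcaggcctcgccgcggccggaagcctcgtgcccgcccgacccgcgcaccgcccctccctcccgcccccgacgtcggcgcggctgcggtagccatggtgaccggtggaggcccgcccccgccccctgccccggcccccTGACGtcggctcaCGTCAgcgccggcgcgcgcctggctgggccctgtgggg
Sik3: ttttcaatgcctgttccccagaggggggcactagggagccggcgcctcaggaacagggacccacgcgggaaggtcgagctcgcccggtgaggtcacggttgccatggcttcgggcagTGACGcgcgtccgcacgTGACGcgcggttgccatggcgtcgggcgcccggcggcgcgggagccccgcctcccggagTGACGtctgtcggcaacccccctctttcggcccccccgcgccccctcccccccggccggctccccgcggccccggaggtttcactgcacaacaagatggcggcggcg
A match in a window is a description of letters and not a measured binding site.

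To ask which members responded to depolarization, each time point was compared with 0 h by the Wald test of DESeq2. A gene was called when its Benjamini-Hochberg adjusted p was at most 0.05 and its log2 fold change was above 1 in size, a 2-fold change. At 2 h, 4 of the 9 members were called higher (Crem, Sik1, Sik2 and Sik3) and 0 lower, where 3.62% of 16840 genes were called higher and 5.94% lower. At 6 h, 5 of 9 were called higher (these 4 and Creb1) and 1 lower (Crtc1), where 9.1% of 17277 genes were called higher and 10.2% lower. From 2 h to 6 h, 2 of 9 were called higher (Creb1 and Sik3) and 0 lower, where 10.1% of 16404 genes were called higher and 8.02% lower. The 2 comparisons with 0 h share the control libraries, so their values are given side by side and are not independent of each other.

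**Figure D1:**
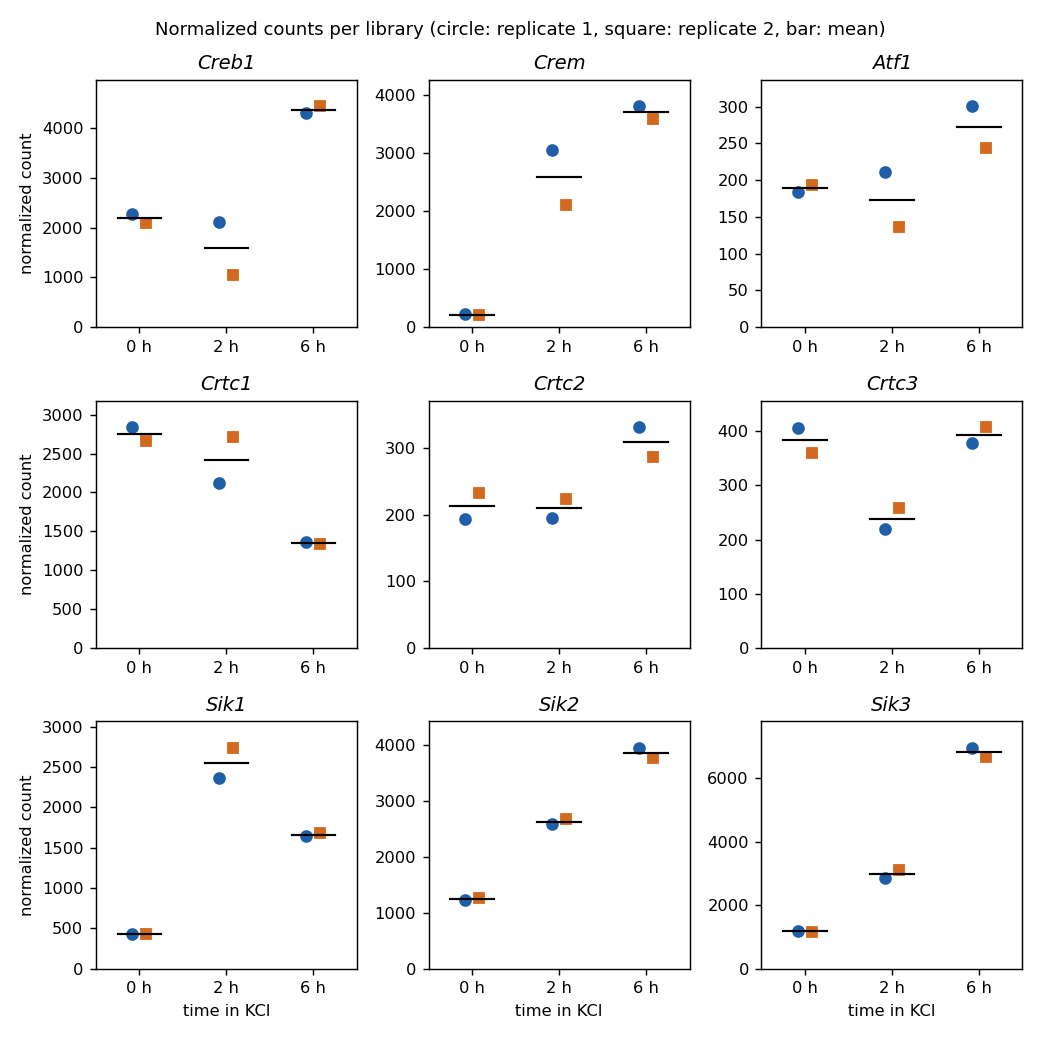
Normalized counts (vertical axis, expected counts scaled by median-ratio size factors, from 0) of the 9 genes against time in KCl, with 1 point per library and a bar at the mean of 2. Crem, Sik1, Sik2 and Sik3 lie above all 0 h libraries at both time points, and the 2 h libraries of Creb1 lie far apart, at 2122 and 1039.

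Crem, the cAMP response element modulator, had the largest fold change of the 9 in both comparisons with 0 h. Normalized counts of Crem (ENSMUSG00000063889, chr18:3266048-3337748, minus strand, GRCm38) were 216.6 and 201.4 in the silenced cultures, 3053 and 2096 after 2 h, and 3800 and 3586 after 6 h. All 4 stimulated libraries were far above both controls, and both 6 h libraries were above both 2 h libraries. The increase over 0 h was 12.3-fold at 2 h, a log2 fold change of 3.62 with an SE of 0.20 (adjusted p = 1.78e-67), and 17.7-fold at 6 h (4.14, SE 0.20, adjusted p = 1.13e-88). From 2 h to 6 h the log2 difference of 0.52 (SE 0.19, adjusted p = 0.0187) stayed under the 2-fold threshold. It did not pass without 6 h replicate 1 (0.48, adjusted p = 0.18) or without 6 h replicate 2 (0.56, adjusted p = 0.106), and leaving out a 2 h library gave 0.29 or 0.82. By size, Crem held rank 149 of the 609 genes called higher at 2 h and rank 150 of 1572 at 6 h. As a level per length, Crem went from 18.12 ± 0.615 TPM at 0 h to 246.2 ± 61.0 TPM at 2 h and 403.7 ± 18.9 TPM at 6 h (SD, n = 2).

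The mean length of Crem transcripts was shorter after KCl, without passing the test. Crem is known to have an internal promoter that makes ICER, a short inducible repressor with the DNA-binding domain but without the activation domain. The annotation lists 39 Crem transcripts, whose starts fall into 6 clusters. The first cluster holds 11 transcripts of 609 to 2931 bases (median 1996). The last holds 7 transcripts of 436 to 1015 bases (median 953) that start 55979 to 56670 bases downstream of the first. The clusters between them had median lengths of 1352.5, 764, 892.5 and 934 bases, so short transcripts were not particular to the last cluster. The mean transcript length of Crem, weighted by abundance, was 1164.75 and 1084.75 bases at 0 h, 969.76 and 962.31 bases at 2 h, and 883.08 and 894.46 bases at 6 h. No 2 groups overlapped, and each later group was shorter. At 0 h, 17 and 18 of the 39 transcripts were longer than this mean, and at 6 h 27 of 39 in both libraries. Effective length, the part of a transcript in which a fragment can start, had a log2 ratio of -0.33 (SE 0.06, adjusted p = 0.296) at 2 h vs 0 h, -0.52 (SE 0.06, adjusted p = 0.0789) at 6 h vs 0 h and -0.19 (SE 0.06, adjusted p = 0.361) at 6 h vs 2 h by limma across 11233 genes. None of the 3 Crem ratios passed. Sik1, with 1 transcript of a fixed 4511 bases in the deposited tables, had effective lengths between 4188.72 and 4209.04 bases, the range that fragment size gave in a gene with no choice of transcripts. The tables give values per gene, so the share of ICER transcripts was not measured.

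**Figure D2:**
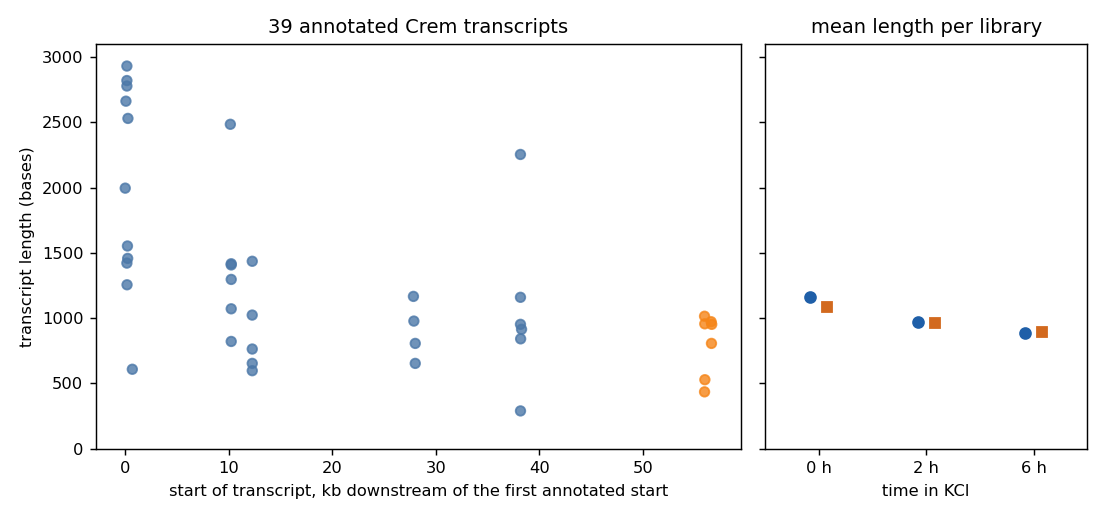
Left, length in bases of the 39 annotated Crem transcripts against the distance of their start from the first annotated start in kb, with the last start cluster in orange. Right, the abundance-weighted mean transcript length of Crem in each library on the same axis, 1164.75 and 1084.75 bases at 0 h against 883.08 and 894.46 bases at 6 h (circles replicate 1, squares replicate 2).

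None of the 9 members was called for a change in effective length in any comparison, where 0.0356% of genes were called at 2 h vs 0 h, 0.525% at 6 h vs 0 h and 0.116% between 2 h and 6 h. At an unadjusted p under 0.05, limma gave Crem, Sik2 and Sik3 in each comparison, 3 of 9 members, where 8.08% of genes passed that threshold at 2 h vs 0 h, 14.0% at 6 h vs 0 h and 12.2% between 2 h and 6 h. The 3 comparisons share libraries, so they are not separate results. For Sik2 the log2 ratio was -0.10 (SE 0.01, adjusted p = 0.0917 by limma) at 2 h vs 0 h, -0.07 at 6 h vs 0 h and 0.03 at 6 h vs 2 h. For Sik3 it was 0.09 at 2 h vs 0 h, -0.08 at 6 h vs 0 h and -0.17 (SE 0.02, adjusted p = 0.11 by limma) at 6 h vs 2 h. The direction for Sik3 against 0 h thus differed between 2 h and 6 h.

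Creb1, the founding CREB factor, was higher at 6 h and had 2 h libraries that lay apart in counts. Normalized counts of Creb1 (ENSMUSG00000025958, chr1:64532645-64604548, plus strand) were 2284 and 2087 in the silenced cultures, 2122 and 1039 after 2 h, and 4310 and 4442 after 6 h. One 2 h library was thus at the level of the controls and the other was below all other 5, a 2.04-fold gap, while both 6 h libraries were above all the rest. In TPM the 2 h libraries were closer together, at 24.93 and 18.47, and both were below the controls at 36.69 and 30.96. Their mean transcript lengths were 5572.93 and 3851.12 bases, and whether length plays a part in the gap in counts was not tested. The log2 fold change was -0.47 (SE 0.29, 95% interval -1.03 to 0.09, adjusted p = 0.245) at 2 h vs 0 h, 1.00 (SE 0.28, adjusted p = 0.00146) at 6 h vs 0 h and 1.47 (SE 0.28, adjusted p = 1.59e-06) at 6 h vs 2 h. The 6 h vs 0 h value sat at the threshold, rank 1571 of the 1572 genes called higher, and the call held in 5 of 15 alternatives, while the adjusted p passed in 14 of 15 and the value stayed between 0.76 and 1.07. Without 2 h replicate 1 the 2 h value was -1.08 and was called lower, and without 2 h replicate 2 it was -0.06 (adjusted p = 0.756). The transcripts of Creb1 have a GC content of 42.6%, lower than those of the other 8 members, and among 993 genes within 1 percentage point of it the median log2 ratio of 2 h replicate 1 to replicate 2 was 0.37, against 1.03 for Creb1. With a GC correction the value was -0.42 (adjusted p = 0.0139) at 2 h and 0.83 (adjusted p = 4.19e-08) at 6 h, both under 2-fold.

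Atf1, the third CREB factor, binds the same element and was the lowest of its family in normalized counts. Normalized counts of Atf1 (ENSMUSG00000023027, chr15:100227819-100261244, plus strand) were 183.8 and 193.8 in the silenced cultures, 210.7 and 136.5 after 2 h, and 300.7 and 244.2 after 6 h. Both 6 h libraries were above the rest, and the 2 h libraries lay on either side of the controls. The log2 fold change was -0.12 (95% interval -0.66 to 0.42, adjusted p = 0.829) at 2 h and 0.53 (95% interval -0.01 to 1.06, adjusted p = 0.103) at 6 h, neither of which passed. At 6 h vs 2 h it was 0.65 (SE 0.28, adjusted p = 0.0419), under 2-fold, and the adjusted p passed in 6 of 15 alternatives. Without 2 h replicate 1 the value was 1.00 (adjusted p = 0.00283) and was called, without 2 h replicate 2 it was 0.38 (adjusted p = 0.294), and it also did not pass when any 1 library of 0 h or 6 h was left out, with TMM factors (adjusted p = 0.0668), with library totals (0.063) or without independent filtering (0.0575).

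Within the CREB family the balance by TPM turned from Creb1 to Crem. Creb1 made up 52.7% ± 3.93 of the summed TPM of the 3 factors at 0 h, 7.83% ± 0.129 at 2 h and 14.3% ± 1.65 at 6 h (SD, n = 2). Crem made up 28.3% ± 2.24, 88.4% ± 1.92 and 82.2% ± 0.793. The ratio of Crem to Creb1 TPM was 0.482 and 0.599 in the silenced cultures, 11.6 and 11.0 after 2 h, and 6.29 and 5.27 after 6 h. By normalized counts, which are not corrected for length, Crem held 8.09% ± 0.0311, 60.4% ± 5.22 and 44.3% ± 1.29. Creb1 held 84.6% ± 0.711, 35.6% ± 5.4 and 52.5% ± 1.73 of these counts. At 6 h Crem was thus the majority by TPM and Creb1 by counts. Summed TPM of the family was 64.12 ± 2.91 before KCl, 277.8 ± 63.0 after 2 h and 491.3 ± 18.3 after 6 h. The shares are a description, and no test was run on them.

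Crtc1, the main CRTC of these neurons by TPM, fell at 6 h. Normalized counts of Crtc1 (ENSMUSG00000003575, chr8:70382355-70439579, minus strand) were 2840 and 2660 in the silenced cultures, 2126 and 2714 after 2 h, and 1360 and 1342 after 6 h. The 6 h libraries were below all 4 others, and the 2 h libraries overlapped the controls. The log2 fold change was -0.18 (95% interval -0.48 to 0.12, adjusted p = 0.435 by DESeq2) at 2 h vs 0 h. This 2 h value was -0.03 without 2 h replicate 1, -0.39 without 2 h replicate 2 and -0.26 (adjusted p = 0.0314 by DESeq2) with a GC correction. It was -1.03 (SE 0.15, adjusted p = 3.02e-10) at 6 h vs 0 h and -0.84 (SE 0.15, adjusted p = 3.96e-07) at 6 h vs 2 h, the last under the 2-fold threshold. The 6 h call was near the threshold, rank 1695 of 1761 by size: with a GC correction the value was -0.92 and without 0 h replicate 1 it was -0.97, both with an adjusted p that passed but under 2-fold.

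Crtc2 and Crtc3, the other two coactivators, were expressed at lower levels and neither was called. Normalized counts of Crtc2 (ENSMUSG00000027936, chr3:90254163-90264125, plus strand) were 194.4 and 233.4 in the silenced cultures, 194.7 and 224.3 after 2 h, and 331.7 and 287.2 after 6 h. Both 6 h libraries were above the rest, and the log2 difference from 0 h, 0.53 (SE 0.22, adjusted p = 0.0323), was under 2-fold and passed the adjusted p in 8 of 15 alternatives, and in none that left out a library of 0 h or 6 h. Normalized counts of Crtc3 (ENSMUSG00000030527, chr7:80586627-80688877, minus strand) were 405.7 and 360.7 in the silenced cultures, 219.7 and 257.4 after 2 h, and 378.8 and 407.6 after 6 h. The 2 h libraries of Crtc3 were below all others and the 6 h libraries overlapped the controls. Its log2 fold change was -0.68 (SE 0.19, adjusted p = 0.00175) at 2 h vs 0 h, 0.04 (95% interval -0.32 to 0.40, adjusted p = 0.894) at 6 h vs 0 h and 0.72 (SE 0.19, adjusted p = 0.000507) at 6 h vs 2 h. The 6 h vs 0 h value changed sign to -0.21 with library totals, and the 2 h value did not pass without 0 h replicate 1 (-0.59, adjusted p = 0.201) or without 0 h replicate 2 (-0.76, adjusted p = 0.0636). The 6 h vs 2 h value did not pass without 6 h replicate 2 (0.67, adjusted p = 0.0717).

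Summed CRTC transcripts stood at 52.56 ± 1.90 TPM at 0 h, 39.93 ± 6.51 TPM at 2 h and 35.23 ± 1.2 TPM at 6 h (SD, n = 2). The share of Crtc1 in that sum was 70.0% ± 0.0200, 71.8% ± 2.97 and 46.1% ± 2.00, and that of Crtc2 13.3% ± 2.03, 18.4% ± 2.5 and 33% ± 7.53. Crtc1 thus kept the largest share of the 3 at each time, with a smaller one at 6 h.

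All 3 kinases rose at both time points, and their order changed. Sik1 is the member known as an immediate target of CREB. Normalized counts of Sik1 (ENSMUSG00000024042, chr17:31844250-31855804, minus strand) were 432.3 and 434.8 in the silenced cultures, 2368 and 2736 after 2 h, and 1648 and 1678 after 6 h. The groups did not overlap, with 2 h highest. Sik1 was 5.88-fold higher at 2 h, a log2 fold change of 2.56 with an SE of 0.13 (adjusted p = 4.21e-78), and 3.84-fold higher at 6 h (1.94, SE 0.14, adjusted p = 1.41e-44). Between 2 h and 6 h the log2 difference was -0.62 (SE 0.13, adjusted p = 8.96e-06), under the 2-fold threshold.

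Sik2, a kinase known for its abundance in fat tissue, had normalized counts of 1236 and 1265 in the silenced cultures, 2582 and 2679 after 2 h, and 3945 and 3760 after 6 h. It lies at chr9:50892801-51009073 on the minus strand (ENSMUSG00000037112). The groups did not overlap and the order was 0 h, 2 h, 6 h. Sik2 was 2.10-fold higher at 2 h, a log2 fold change of 1.07 with an SE of 0.10 (adjusted p = 8.84e-23), and 3.08-fold higher at 6 h (1.62, SE 0.10, adjusted p = 1.04e-52), and the 2 h value was 0.91, under 2-fold, with library totals. The expected counts of Sik2 were not whole numbers in any of the 6 libraries, and its exons overlap those of Ppp2r1b, a phosphatase subunit gene on the opposite strand, so its counts are uncertain. Ppp2r1b had log2 fold changes of 0.29 (SE 0.11, adjusted p = 0.0452) at 2 h and 0.82 (SE 0.11, adjusted p = 6.72e-12) at 6 h, and whether reads were assigned by strand is not given in the sources used here.

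Sik3, a broadly expressed kinase, had normalized counts of 1201 and 1166 in the silenced cultures, 2854 and 3119 after 2 h, and 6962 and 6687 after 6 h. It lies at chr9:46012820-46224194 on the plus strand (ENSMUSG00000034135), and its window printed above begins 250 bases before that start. No groups overlapped, and each later group was higher. The gene was 2.52-fold higher at 2 h (adjusted p = 8.55e-32) and 5.77-fold higher at 6 h (adjusted p = 6.75e-116). Of the 3 kinases it was the one called between 2 h and 6 h (log2 fold change 1.19, SE 0.11, adjusted p = 7.09e-27).

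**Figure D3:**
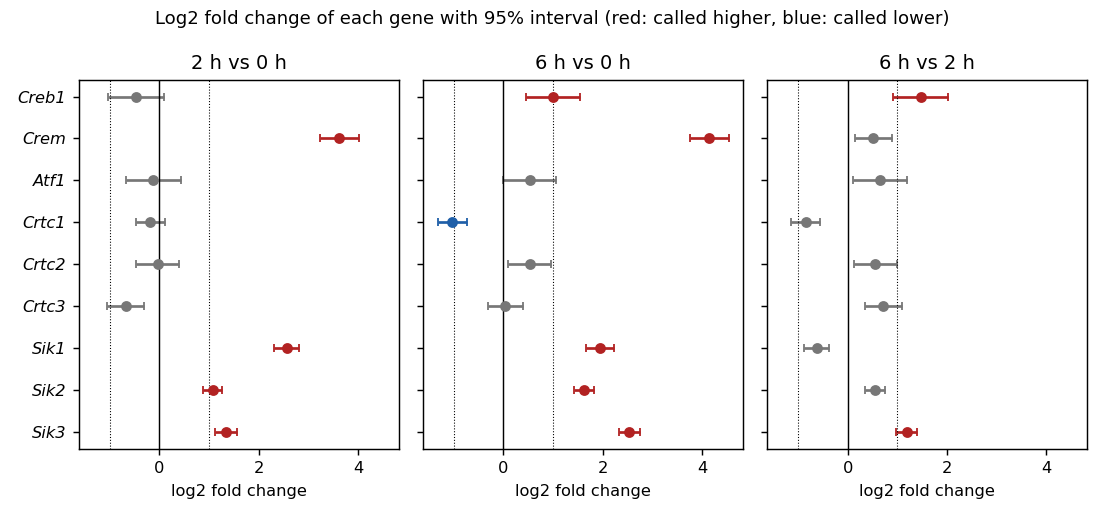
Log2 fold changes of the 9 genes (horizontal axis) with 95% intervals for the 3 comparisons, with dotted lines at the 2-fold threshold and genes called higher in red and lower in blue. Crem, Sik1, Sik2 and Sik3 are called higher at 2 h and 6 h, Crtc1 is called lower at 6 h, and Creb1 at 6 h lies on the threshold.

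Per length, the SIK family went from 49.61 ± 0.0495 TPM at 0 h to 123.7 ± 8.03 TPM at 2 h and 193.8 ± 1.94 TPM at 6 h (SD, n = 2). Sik1 held 14.7% ± 0.156 of that sum at 0 h, 30.6% ± 1.51 at 2 h and 12.7% ± 0.448 at 6 h. Sik3 held 39.7% ± 1.42, 33.2% ± 0.388 and 54.3% ± 0.0195. The ratio of summed SIK to summed CRTC TPM was 0.92 and 0.969 in the silenced cultures, 3.34 and 2.91 after 2 h, and 5.41 and 5.60 after 6 h, so kinase transcripts went from about level with the coactivators to above them in every stimulated library.

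**Figure D4:**
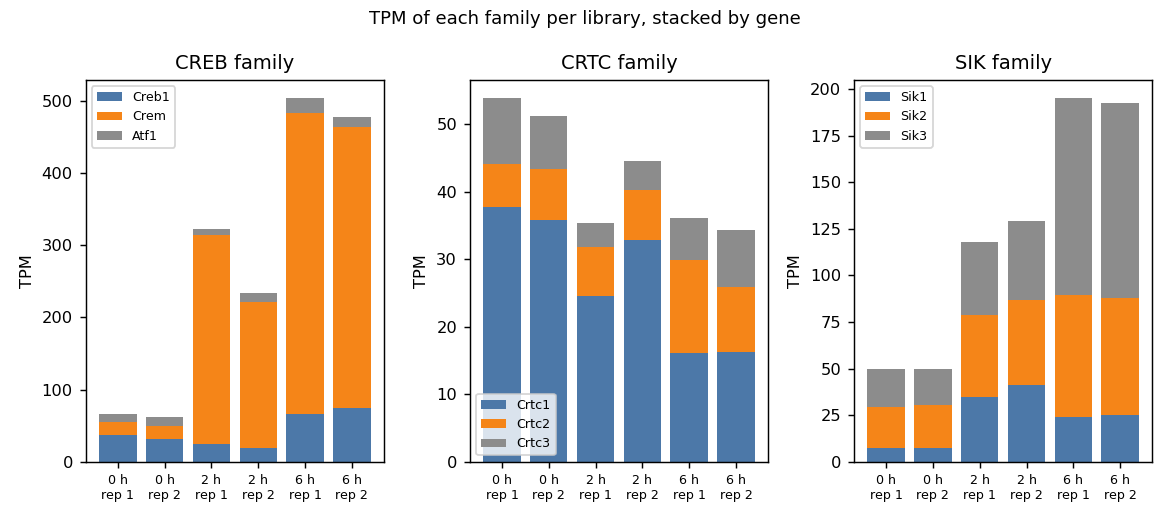
Summed TPM (vertical axis, from 0, on its own scale in each panel) of the CREB, CRTC and SIK families in the 6 libraries, stacked by gene. Crem makes up most of the CREB bar at 2 h and 6 h, the CRTC bars are lower at 6 h than at 0 h, and Sik3 takes the largest part of the SIK bar at 6 h.

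The order of levels per length changed as follows. At 0 h Crtc1 was highest (36.77 ± 1.34 TPM), followed by Creb1 (33.83 ± 4.05 TPM), and their ranges overlapped. Crtc2 (6.975 ± 0.813 TPM) and Sik1 (7.30 ± 0.0849 TPM) were lowest at 0 h and also overlapped. At 2 h Crem was highest, and Sik2 (44.75 ± 1.52 TPM), Sik3 (41.03 ± 2.18 TPM) and Sik1 (37.92 ± 4.33 TPM) came next, where the ranges of Sik3 and Sik1 overlapped. At 6 h Crem was followed by Sik3 (105.2 ± 1.09 TPM), Creb1 (70.24 ± 5.50 TPM) and Sik2 (64.02 ± 1.47 TPM), each apart from the next, and Crtc3 (7.35 ± 1.70 TPM) was lowest (SD, n = 2 throughout).

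The genes around the circuit were taken from 4 lists of 71 genes in all. Of the 20 known CREB target genes, 17 were called higher after 2 h of KCl and 19 after 6 h, and 0 were called lower at either time, where 3.62% of all genes were called higher and 5.94% lower at 2 h, and 9.1% and 10.2% at 6 h. Their median log2 fold change was 2.89 at 2 h and 3.18 at 6 h, beside 0.015 and 0.000 over all genes tested. The list was drawn up as genes known to respond to activity, so it is not independent evidence of its direction. Fos, an AP-1 factor, had normalized counts of 38.17 and 34.55 in the silenced cultures, 6939 and 8222 after 2 h, and 3915 and 3806 after 6 h. Pcsk1, a prohormone convertase, had 146.5 and 162.6 in the silenced cultures, 5076 and 4110 after 2 h, and 5358 and 5095 after 6 h. Between 2 h and 6 h, 5 targets were called lower and 2 higher, beside 8.02% and 10.1% of all genes, so the higher count is near that share. The nuclear receptor Nr4a2 fell (log2 fold change -2.13, SE 0.13, adjusted p = 9.12e-55), as did Nr4a1 (-1.37, SE 0.14, adjusted p = 9.45e-21), while Gem, a small GTPase, rose (1.55, SE 0.24, adjusted p = 4.64e-10). Of 16 target genes with a promoter window, all 16 held a half-site and 5 the palindrome (Areg, Dusp1, Pcsk1, Scg2 and Sst), beside 20.8% and 1.79% of all windows. The half-site was also in 9 of 14 windows of the CREB kinases and coactivators, 9 of 16 of the SIK and CRTC regulators and 8 of 13 of the other CREB and ATF factors, each with the palindrome in 1 window, so a share above that of all windows was not particular to the targets.

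Among 16 genes listed as CREB kinases and coactivators, 0 were called at 2 h. The list also holds regulatory subunits of protein kinase A and the upstream kinases Camkk1 and Camkk2. By the adjusted p of DESeq2 alone 4 were higher and 1 lower at 2 h (12.3% and 14.2% of all genes tested). At 6 h 3 were called higher and 2 lower, beside 9.1% and 10.2% of all genes. The lower count is near the share of all genes. Prkar2a, a regulatory subunit of protein kinase A, rose at 6 h (log2 fold change 1.65, SE 0.10, adjusted p = 1.17e-53), from 2904 and 2801 normalized counts at 0 h to 8980 and 8982. Crebbp, the acetyltransferase that binds phosphorylated CREB, also rose (1.24, SE 0.12, adjusted p = 1.59e-22). The CREB kinases Rps6ka3 and Rps6ka5 went opposite ways, with log2 fold changes of 1.27 (SE 0.25, adjusted p = 2.39e-06) and -1.27 (SE 0.17, adjusted p = 3.61e-13). The median of the list at 6 h was -0.03.

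Of 19 regulators and other substrates of SIK and CRTC, 1 was called higher at 2 h (Sfn, a 14-3-3 protein at 21.30 to 58.93 normalized counts, named after its values were seen), and 3 were called higher and 2 lower at 6 h. Over all genes tested 3.62% were called higher at 2 h, and 9.1% higher and 10.2% lower at 6 h, so the lower count is near that share. By the adjusted p alone 8 were higher and 0 lower at 2 h, and 12 were higher and 3 lower at 6 h, where 12.3% and 14.2%, then 23.7% and 21.7% of all genes passed. Among those higher was the 14-3-3 gene Ywhaz, with a log2 fold change of 0.65 at 6 h. The class IIa histone deacetylases, which SIK kinases phosphorylate like CRTC, included all 3 that were called higher: on the log2 scale Hdac9 rose by 2.55 (SE 0.14, adjusted p = 1.74e-67), Hdac4 by 1.11 (SE 0.12, adjusted p = 1.99e-18) and Hdac5 by 1.06 (SE 0.17), while the fourth, Hdac7, had 0.09 (SE 0.25). Hdac9 had normalized counts of 734.1 and 654.8 in the silenced cultures, 616.1 and 533.5 after 2 h, and 3837 and 4288 after 6 h, so that it was high at 6 h alone. The pseudokinase genes Strada and Stradb, whose products hold the SIK-activating kinase LKB1 in its active complex, fell at 6 h with log2 fold changes of -1.97 (SE 0.20, adjusted p = 7.56e-22) and -1.11 (SE 0.13, adjusted p = 1.67e-16). Stk11, which encodes LKB1, had 0.42 (SE 0.13).

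Of 16 other CREB and ATF factors, 2 were called higher and 1 lower at 2 h, and 4 higher and 0 lower at 6 h, where the shares over all genes were 3.62% and 5.94%, then 9.1% and 10.2%. The count of 1 lower (Crebl2) is near that share. Atf4, a stress-response factor, had normalized counts of 3178 and 3325 in the silenced cultures, 12190 and 14420 after 2 h, and 12090 and 11110 after 6 h. Creb5 rose by 2.16 on the log2 scale at 6 h (SE 0.28, adjusted p = 1.55e-13), and Crebl2 fell at 2 h (-1.33, SE 0.35, adjusted p = 0.000878). The median of the list was 0.07 at 2 h and 0.56 at 6 h.

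**Figure D5:**
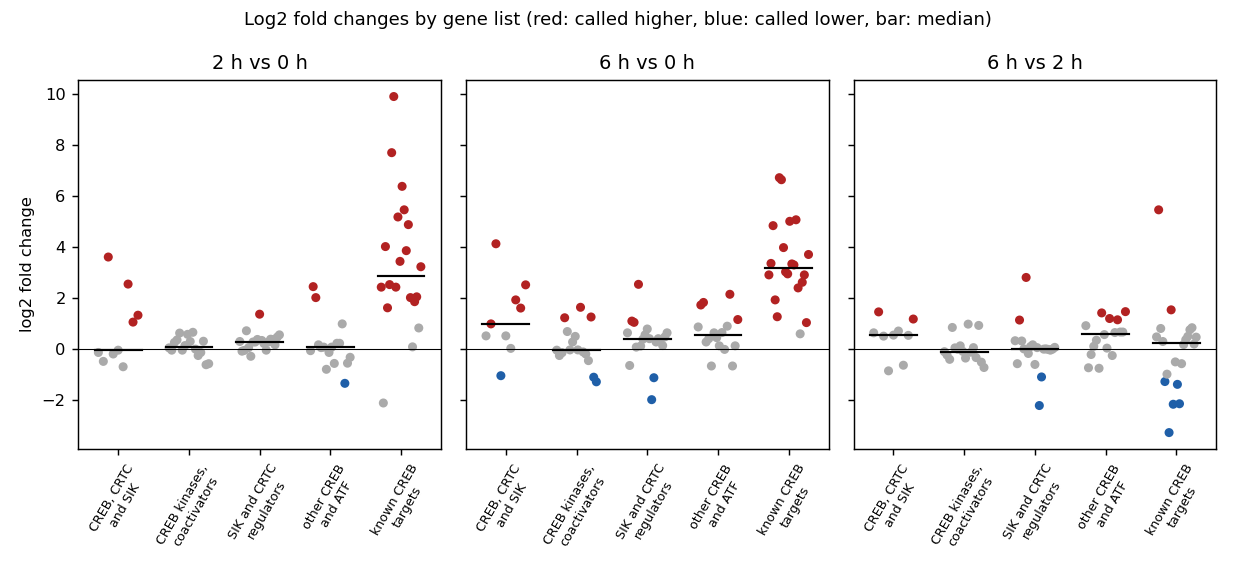
Each gene's log2 fold change (vertical axis) in the 3 comparisons for the 9 members and for the 4 lists around them, with 1 point per gene, genes called higher in red, lower in blue and a bar at the median. The known CREB targets have medians of 2.89 at 2 h and 3.18 at 6 h, above those of the other lists.

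The genes most like each called member in pattern were found among 11182 genes by the root mean square difference of log2 normalized counts, centred per gene over the 6 libraries. For Crem these were Gpr35 (0.279), Bdnf (0.297) and Sertad1 (0.317), at larger differences than the matches of the other members. Bdnf, a neurotrophin, stood at 89.32 ± 14.3 normalized counts before KCl, 1458 ± 352 after 2 h and 2573 ± 10.4 after 6 h (SD, n = 2). Gpr35 and Sertad1 were low before KCl, at 6.922 ± 0.254 and 14.38 ± 6.03 normalized counts, so their fold changes rest on few control reads. For Sik1 they were Gpr19 (0.0891), Fosl2 (0.102) and Rbm15 (0.163). Those for Sik2 were Dnajc12 (0.0554), Bcor (0.0647) and Zc3h11a (0.0718), and those for Sik3 were Spry4 (0.101), Myo1e (0.113) and Itprid2 (0.119). Crtc1 was closest to Cryl1 (0.0255), C87436 (0.0496) and Ly6e (0.0601). Creb1 was closest to Rasa2 (0.059), Crebzf (0.0935) and Ubn2 (0.096), a match over all 6 libraries that includes the gap between the 2 h replicates.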

How the data were processed

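RNA-seq of 6 libraries (3 time points, 2 replicates each, grouped by sample title) was used. Per the labels and methods, stranded poly(A) libraries were trimmed and mapped to mm10, and the processing notes name RSEM 1.3.0 and Bowtie2 2.2.9. The expected counts deposited by the authors are estimated per gene and not normalized. TPM, also deposited by the authors, corrects for length and library size. The transcript and effective lengths deposited by the authors are abundance-weighted means in bases. The FPKM column was not used.

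The 9 genes and 4 lists were chosen with earlier results of these data known. Symbols, positions and transcripts came from GENCODE M21 (GRCm38), which matched 42462 of 43432 genes and may be another release than the one used upstream. Expected counts were rounded and fitted with DESeq2 1.42.0 in R 4.3.3, with the tool and thresholds of the study's methods: all libraries in one fit, group as the only term, Wald test, Benjamini-Hochberg adjustment over genes kept by independent filtering. Effective lengths, for genes averaging at least 100 expected counts, were tested on the log2 scale with limma 3.58.1 with a trend, and calls needed an adjusted p no higher than 0.05 and a log2 ratio of 0.2 or more in size. Alternatives were edgeR 4.0.16 (quasi-likelihood), other scalings, filters, a test against a 2-fold change, a GC correction, a replicate block and leaving out each library. On simulated data for 2 h vs 0 h, DESeq2 recovered 93.5% of 200 genes changed 3-fold among 22515, with 18 false calls. Limma recovered 83.5% of 200 genes changed 2-fold in length among 11233, with 3 false calls. The genes changed 3-fold were drawn from those above a minimum mean count. Each gene was simulated on its own, without the GC trend between replicates, so recovery in the real libraries may differ. Named list genes were, per list and comparison, at most the 4 called genes with the largest change and a mean normalized count of at least 100. Sfn, Ywhaz, Hdac5, Hdac7, Stk11, Ppp2r1b and the target genes with a palindrome were named outside that rule. Reads carry no molecular identifiers. The SEs of DESeq2 cover counting error and the spread between libraries, which rests on 2 libraries per group.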

Additional observations from a re-analysis of the deposited data

Results flagged for a closer look

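Creb1 had estimates of opposite sign against the silenced controls at the 2 time points: its log2 fold change was -0.47 (SE 0.29, adjusted p = 0.245) at 2 h, which did not pass, and 1.00 (SE 0.28, adjusted p = 0.00146) at 6 h. The difference itself, 6 h vs 2 h, was 1.47 (SE 0.28, adjusted p = 1.59e-06 by DESeq2) and ranged from 1.06 without 2 h replicate 2 to 2.08 without 2 h replicate 1. Both 6 h libraries were above both 2 h libraries. With a GC correction the difference was 1.25 (adjusted p = 8.61e-17).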

How the results depend on the processing

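Across 15 alternatives of expression, Crem and Sik1 kept their calls against 0 h at both times, and Sik2 and Sik3 did at 6 h. Of 405 values of the 9 genes under these alternatives, 377 kept their direction and side of the threshold, 19 were no longer called, 2 became called and 7 changed sign. A test against a 2-fold change called 178 genes higher and 225 lower at 2 h vs 0 h, 446 and 414 at 6 h vs 0 h, and 342 and 198 at 6 h vs 2 h. Of the 9 genes it called 2 higher at 2 h vs 0 h, 0 lower at 6 h vs 0 h and 0 higher at 6 h vs 2 h, which follows from the stricter hypothesis. Library totals called 1032 genes higher at 6 h vs 0 h. The number of the 9 called lower at 6 h vs 0 h (Crtc1) was 0 with the GC correction and 0 with the replicate block and GC correction, and 0 to 1 when libraries were left out, with 0 h replicate 1 the one that ended the call. The number called lower at 2 h vs 0 h was 0 to 1, with 2 h replicate 1 the one whose removal gave the call of Creb1. The cause of these shifts was not tested.

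Values that changed sign were all uncalled. Leaving out libraries took Crtc2 at 2 h vs 0 h from -0.15 to 0.12, Atf1 at 2 h vs 0 h from -0.48 to 0.14 and Crtc3 at 6 h vs 0 h from -0.04 to 0.13, and the last was -0.00 with TMM factors and -0.21 with library totals. In log2 effective length the same step took Creb1 from -0.37 to 0.20, Atf1 from -0.58 to 0.57 and Crtc1 from -0.03 to 0.01 at 2 h vs 0 h. It took Atf1 from -0.31 to 0.00 and Crtc3 from -0.05 to 0.30 at 6 h vs 0 h, and Creb1 from -0.44 to 0.13, Atf1 from -0.72 to 0.43 and Crtc2 from -0.28 to 0.08 at 6 h vs 2 h.

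The number of all genes called for effective length moved with the setting. With a mean of at least 20 expected counts it was 7 at 2 h vs 0 h, 35 at 6 h vs 0 h and 8 between 2 h and 6 h, and without a variance trend the last was 7. Leaving out libraries gave 0 to 2, 1 to 23 and 0 to 22, in that order. None of the 9 genes was called in any of these alternatives.

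Nothing in the labels ties libraries of the same number to a shared culture or day, and with 2 pairs the numbers were not taken as pairs. Between libraries of the same number, deviations from the group means had correlations of 0.281, -0.00226 and 0.152 in the 3 comparisons (0.0924, -0.0635 and 0.039 after GC correction), and the ratio of replicate 1 to replicate 2 ran against GC content in all 3 groups (rho -0.405, -0.744 and -0.293). Under the replicate block the genes called were 548 higher and 967 lower at 2 h vs 0 h, 1508 and 1661 at 6 h vs 0 h, and 1639 and 1227 at 6 h vs 2 h. For effective length the block gave 0, 2 and 3 genes. The block alone changed no call of the 9 genes.

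With 2 libraries per group the error of each mean is poorly known, and at 2 h vs 0 h the log2 intervals of the 9 genes were widest for Creb1 (-1.03 to 0.09) and Atf1 (-0.66 to 0.42).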

Other observations

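Counts and TPM gave different sizes of change for several members. A gap was present also in Sik1, whose transcript length is fixed, which was 5.88-fold higher at 2 h in counts and 5.19-fold higher in mean TPM, and 3.84-fold and 3.38-fold at 6 h. Crtc3 at 2 h was 1.61-fold lower in normalized counts and 2.25-fold lower in mean TPM, and its mean transcript length was 4119 ± 27.7 bases at 2 h against 3403 ± 250 at 0 h (SD, n = 2). Sik3 at 2 h was 2.52-fold higher in counts and 2.08-fold higher in TPM, with a mean transcript length of 4849 ± 98.9 bases against 4557 ± 90.7 at 0 h. Crem at 6 h was 17.7-fold higher in counts and 22.3-fold higher in TPM, with 888.8 ± 8.05 bases against 1125 ± 56.6. None of these lengths passed the test of effective length.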
